A study of Mus musculus with 4 samples.

Results

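Crypt stem cell markers and Wnt target genes were described across epithelium of the mouse ileum and colon with and without microbes. The list held 10 genes, taken by symbol: Lgr5, Olfm4, Ascl2, Smoc2, Axin2, Sox9, Cd44, Ephb2, Prom1 and Ccnd2. Probe sets, the groups of short probes that each report on a transcript, were matched to them through the platform annotation. That gave 25 probe sets for 9 of the genes, among 18193 genes named on the array, and Ephb2 was not analysed here because no probe set was matched to it. Of the 25 probe sets, 15 were above the floor (an intensity of 62.4, the pooled median of all arrays) on at least 1 array and 10 were above it on none.

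Epithelial cells were cut by laser out of 10 µm sections from C57/Bl6 mice that were either germ-free (living without microbes) or wild type controls. The groups were ileum of germ-free mice, ileum of wild type mice, proximal colon of germ-free mice and proximal colon of wild type mice. Each had 1 array, hybridised after 2 rounds of amplification with RNA of about 16000 cells pooled over 4 mice. A single array per group leaves every difference below without a replicate check, so no p-value was computed and precision is limited by the number of arrays. The sources used here give neither the age of the mice nor the share of crypt and villus cells in a capture.

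The lining of the gut is renewed from stem cells at the base of the crypts, which divide under the control of Wnt signals from neighbouring cells. Wnt ligands bind Frizzled and LRP receptors, stabilise beta-catenin and so switch on target genes through TCF factors. R-spondins, the ligands of Lgr receptors such as Lgr5, strengthen the signal, and Axin2 dampens it as a feedback inhibitor. Notch signals between neighbouring crypt cells hold back secretory differentiation and BMP signals act against stem cell fate toward the villus.

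All 7 epithelial markers (among them Epcam and Krt8) were above the floor on all 4 arrays. The colon marker Car1 read 32.5 and 64.7 on the germ-free and wild type ileum arrays, against 12437 and 14384 on the germ-free and wild type colon arrays. The colon markers Hoxb13 and Hoxd13 were below the floor on all 4 arrays. The ileal marker Fabp6 was bright on the ileum arrays (18190 germ-free, 16920 wild type), but also read 6008 on the germ-free colon array, against 767 on the wild type colon array. Of 4 measured ileal markers, 3 read higher on the germ-free than on the wild type colon array and 1 lower. All 3 measured colon markers read lower there. Of all measured genes, 48.6% were higher and 51.3% lower. In the values as deposited, the median of the 18S ribosomal RNA probe sets was lower on each germ-free array, at 3511 against 5374 in ileum and 1604 against 4114 in colon. The log2 ratio of 5' to 3' Gapdh control signal was also lower, at -4.08 germ-free against -2.98 wild type in ileum and -4.09 against -3.61 in colon. The part of RNA quality in the germ-free comparisons was not tested. The labels mention hematoxylin staining for the germ-free samples alone, and staining and microbial status cannot be told apart.

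Intensities below are quantile-normalized and on a linear scale. Each gene is given by its brightest probe set unless another is named, and intensities of different genes are not comparable with each other. A change is a difference of log2 intensities after values under the floor were raised to it, and a gene counted as measured if at least 1 array of the comparison was above the floor. Where 1 array lay under the floor the fold is a lower bound, written "at least". As a measure of technical error, the SD between the changes of a gene's brightest 2 probe sets was 0.26 log2 in the colon germ-free comparison, 0.19 in the ileum one, 0.25 between the wild type regions and 0.28 between the germ-free regions. The spread between mice is not part of it, because RNA was pooled.

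The stem cell markers differed in whether the arrays detected them at all. Lgr5, the R-spondin receptor that marks dividing crypt base stem cells, lay below the floor on every array. Its brighter probe set read 30.5 on the germ-free ileum, 43.4 on the wild type ileum, 23.9 on the germ-free colon and 23.2 on the wild type colon array, so no order can be read from it. Ascl2, the transcription factor that controls stem cell fate in crypts, was above the floor on all 4 arrays by 1 of its 3 probe sets. It read 116 on the germ-free ileum, 135 on the wild type ileum, 111 on the germ-free colon and 111 on the wild type colon array. The Ascl2 values lay close together, with a range of 0.29 log2, and its germ-free change in colon was 0.01. That probe set carries a name ending that marks possible matches to several transcripts.

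Olfm4, a secreted glycoprotein of crypt base cells in the mouse small intestine, had the widest range of the list. It read 966 on the germ-free ileum and 1721 on the wild type ileum array, against 8.30 on the germ-free colon and 3.49 on the wild type colon array. Both ileum arrays were bright and both colon arrays lay far below the floor. Germ-free ileum exceeded germ-free colon at least 15.5-fold in Olfm4. Wild type ileum exceeded wild type colon at least 27.6-fold. Smoc2, a matrix protein enriched in Lgr5-expressing cells, was also brighter in ileum, at 102 on the germ-free ileum and 156 on the wild type ileum array, against 44.3 on the germ-free colon and 50.5 on the wild type colon array. It was above the floor in ileum alone, and ileum exceeded colon at least 1.63-fold between the germ-free arrays. Between the wild type arrays the bound was 2.50-fold. With both probe sets averaged, the wild type colon value lay under the floor, and the lower bound was 0.05 log2. Without a floor, the 2 probe sets were higher in wild type ileum by 1.63 and 0.84 log2, the dimmer with both values under it.

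Prom1, the membrane protein CD133 that marks crypt cells in the mouse small intestine, ran the other way. It read 2162 on the germ-free ileum and 3081 on the wild type ileum array, against 10309 on the germ-free colon and 10936 on the wild type colon array. Both colon arrays stood above both ileum arrays, 4.77-fold in the germ-free state and 3.55-fold in the wild type state. The colon arrays differed by a log2 change of -0.09, less than the SD between probe sets.

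**Figure D1:**
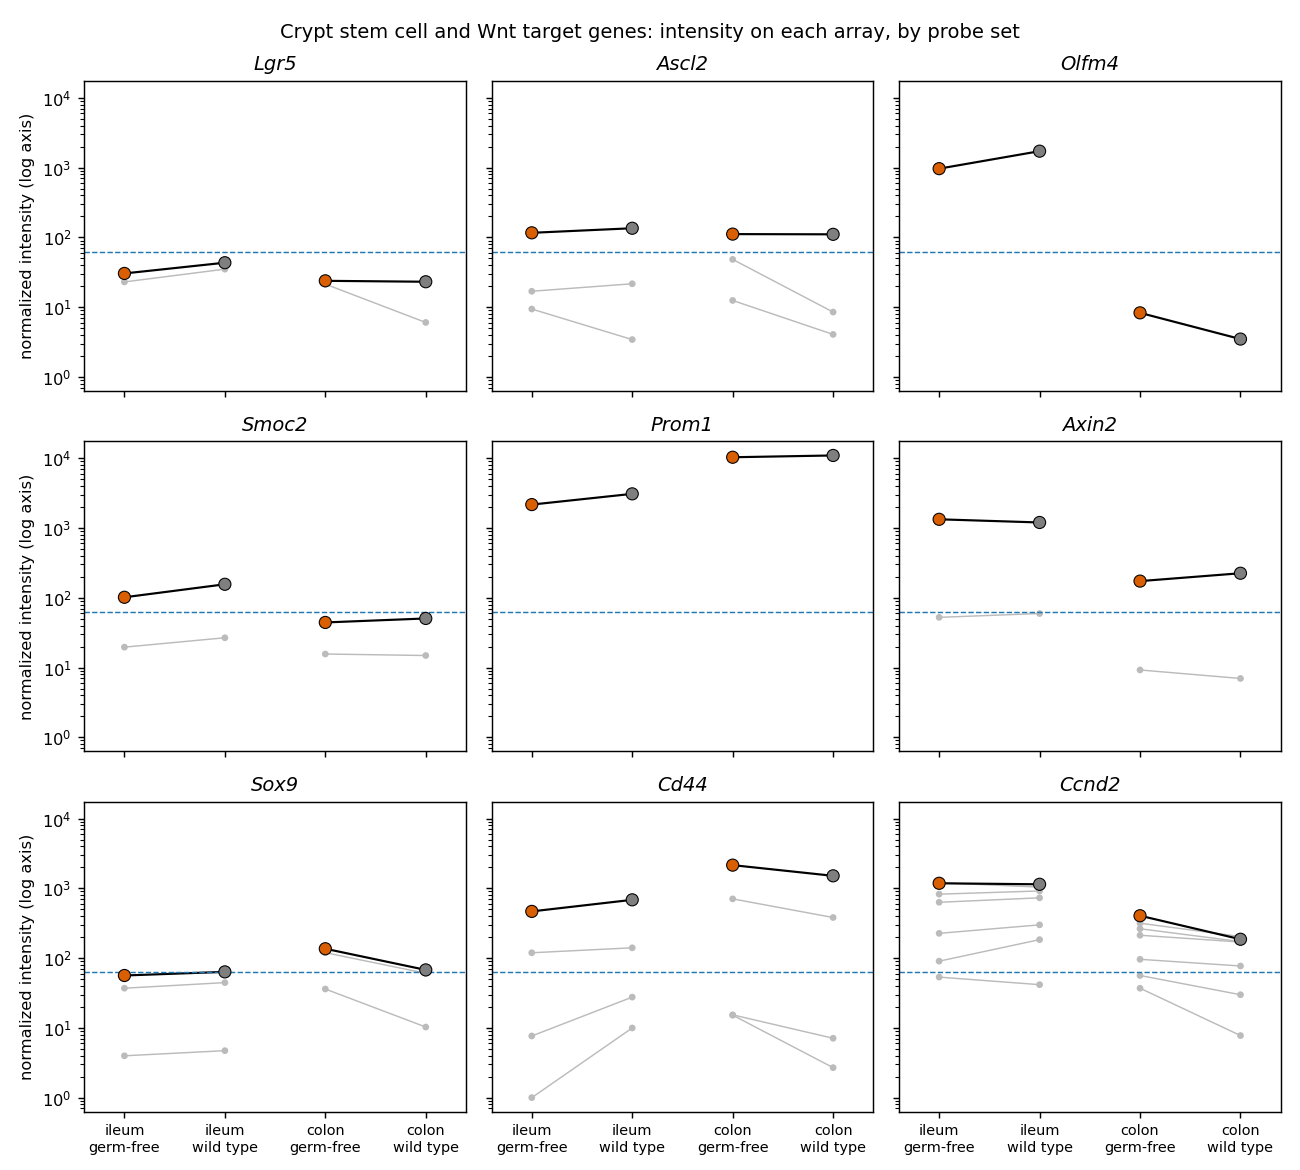
Normalized intensity (log axis) of every probe set of the 9 genes on the 4 arrays, with germ-free arrays in orange, wild type arrays in grey and the floor of 62.4 as a dashed line. Large points joined by black lines are the brightest probe set of each gene and small grey points the others. Olfm4 lies at 966 and 1721 on the ileum arrays and at 8.30 and 3.49 on the colon arrays, and Prom1 is brighter on the colon arrays.

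Of the Wnt target genes, Axin2 and Ccnd2 were brighter in ileum and Cd44 in colon. Axin2, the feedback inhibitor of Wnt signalling, read 1330 on the germ-free ileum and 1198 on the wild type ileum array, against 173 on the germ-free colon and 224 on the wild type colon array. Both ileum values lay above both colon values, 7.69-fold in the germ-free state and 5.34-fold in the wild type state. The other Axin2 probe set was below the floor on all arrays. Ccnd2, encoding the G1 cyclin D2, read 1179 on the germ-free ileum and 1141 on the wild type ileum array, against 404 on the germ-free colon and 186 on the wild type colon array. It was 2.92-fold higher in germ-free ileum than in germ-free colon and 6.13-fold higher in wild type ileum than in wild type colon. All 6 measured Ccnd2 probe sets were higher in ileum in both states, and those past 2-fold numbered 5 between the germ-free and 6 between the wild type arrays.

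Cd44, an adhesion receptor for hyaluronan that is high in crypts, read 466 on the germ-free ileum and 683 on the wild type ileum array, against 2147 on the germ-free colon and 1509 on the wild type colon array. The ileum value was 4.60-fold lower than the colon value in the germ-free state and 2.21-fold lower in the wild type state. The other measured Cd44 probe set also stood lower in ileum, by log2 changes of -2.57 and -1.44 in these states. With all 4 Cd44 probe sets averaged, 2 of which lay below the floor on every array, the change was -1.13 germ-free and 0.20 wild type, both against the floor because the averages of germ-free ileum and wild type colon lay under it. Sox9, a transcription factor of crypt progenitors and Paneth cells, lay close to the floor, at 56.3 on the germ-free ileum and 63.4 on the wild type ileum array, against 136 on the germ-free colon and 67.7 on the wild type colon array. One Sox9 value stood apart, that of germ-free colon, and the germ-free ileum value was at least 2.18-fold lower. With all 3 Sox9 probe sets averaged, the germ-free ileum value lay under the floor, so the change of -0.42 was a minimum size. Without a floor, the 3 probe sets were at -1.27, -1.69 and -3.18, each with a germ-free ileum value under it.

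Between the germ-free regions, 3 of 8 measured genes of the list passed 2-fold toward ileum and 3 toward colon, where 7.37% and 5.88% of 11986 measured genes did. Between the wild type regions it was 4 toward ileum and 2 toward colon, where 6.04% and 5.93% of 12000 measured genes were. In either direction, 13.2% of all genes passed 2-fold in the germ-free and 12% in the wild type comparison. The median change of the list was 0.38 in the germ-free and 0.80 in the wild type comparison, against 0.04 and -0.01 over all measured genes, and it hides opposite changes. The middle 95% of all changes ran from -1.51 to 1.59 between the germ-free and from -1.61 to 1.65 between the wild type regions. Olfm4, Axin2 and Prom1 lay outside that range in both states, Cd44 in the germ-free state alone and Ccnd2 in the wild type state alone, at 1.54 against 2.62 on the log2 scale. The 2 regional comparisons share no array, but each shares its arrays with the germ-free comparisons.

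**Figure D2:**
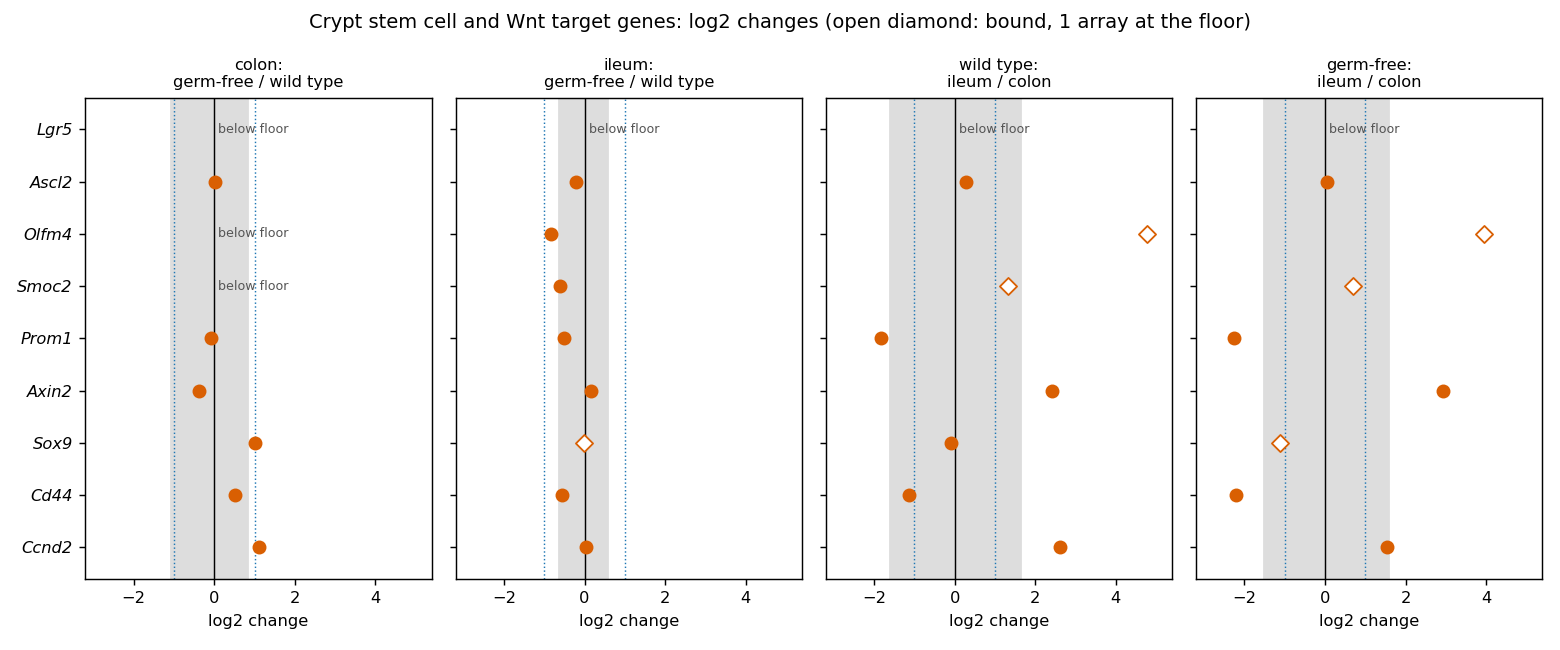
Log2 change of each gene in the 4 comparisons (x axis), with the middle 95% of all measured genes as a grey band and 2-fold as dotted lines. Filled points are changes with both arrays above the floor and open diamonds are bounds. Olfm4, Axin2 and Ccnd2 lie to the right in the regional panels and Prom1 and Cd44 to the left, while the germ-free changes stay within 1.12 of 0.

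For the 4 genes that differed most between regions and have a promoter entry, the 250 bases before an annotated start are shown, to let the ileum-bright and the colon-bright genes be set beside the sequence there. They are from RefSeq on build GRCm38.p6, written 5′ to 3′ on the strand of the gene, for Olfm4 (chr14:80000052-80000301, plus strand), Axin2 (chr11:108920099-108920348, plus strand), Prom1 (chr5:44101737-44101986, minus strand) and Cd44 (chr2:102901666-102901915, minus strand). Capitals mark TGGGAA on either strand, the core bound by RBPJ, the DNA-binding partner of Notch.
Olfm4: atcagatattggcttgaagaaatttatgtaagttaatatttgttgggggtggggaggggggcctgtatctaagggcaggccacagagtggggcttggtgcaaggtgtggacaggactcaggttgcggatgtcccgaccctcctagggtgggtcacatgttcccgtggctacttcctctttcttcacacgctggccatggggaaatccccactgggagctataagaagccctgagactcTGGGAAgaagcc
Axin2: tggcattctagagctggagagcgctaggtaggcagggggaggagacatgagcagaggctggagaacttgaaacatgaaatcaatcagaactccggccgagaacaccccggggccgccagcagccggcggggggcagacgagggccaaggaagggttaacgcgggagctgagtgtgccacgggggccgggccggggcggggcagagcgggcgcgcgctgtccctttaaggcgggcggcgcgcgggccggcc
Prom1: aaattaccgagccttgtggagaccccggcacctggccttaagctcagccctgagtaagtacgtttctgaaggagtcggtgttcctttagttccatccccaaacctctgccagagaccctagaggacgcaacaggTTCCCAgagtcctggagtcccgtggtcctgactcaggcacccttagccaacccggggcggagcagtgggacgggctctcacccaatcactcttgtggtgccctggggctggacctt
Cd44: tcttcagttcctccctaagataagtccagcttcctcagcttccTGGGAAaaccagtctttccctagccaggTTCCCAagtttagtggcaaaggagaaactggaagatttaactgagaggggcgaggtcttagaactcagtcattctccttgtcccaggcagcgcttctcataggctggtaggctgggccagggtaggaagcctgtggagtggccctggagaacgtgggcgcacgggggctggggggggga

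Olfm4, a Notch target in the mouse intestine, had 1 TGGGAA match, whose first base lies at -12 from the start, on the strand shown. Cd44 had 2 matches, Prom1 had 1 (and 0 in a second annotated window, not shown) and Axin2 had 0, and 21.6% of 32851 promoter windows of this length hold at least 1. The match thus occurred in windows of ileum-bright Olfm4 and of colon-bright Cd44 and Prom1. In the 7 windows available for 6 genes of the list, neither TCF motif, CTTTGAT or CTTTGAA, occurred on either strand, and 7.48% of all windows hold one. The E-box CAGCTG occurred in 0 of these windows and in 13% of all. The windows are short, and these counts describe letters alone.

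In germ-free colon, Ccnd2 and Sox9 passed 2-fold upward relative to wild type colon, 2 of 6 measured genes of the list, and 0 passed it downward. Of 11746 measured genes, 1.29% passed it upward, 3.23% downward and 4.52% either way. The median change of the list was 0.26, against -0.01 over all measured genes. Ccnd2 was 2.17-fold and Sox9 2.01-fold higher, the only genes of the list outside the middle 95% of all changes (-1.09 to 0.84). Cd44 was higher by a log2 change of 0.51, and Axin2 lower by -0.37. Ascl2 and Prom1 differed by less than the SD between probe sets, at 0.01 and -0.09, though with median scaling they were at -0.14 and -0.43. Olfm4, Smoc2 and Lgr5 were below the floor on both colon arrays.

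The colon changes of Ccnd2, Cd44 and Sox9 had the same sign in all their measured probe sets but differed in size. All 5 measured Ccnd2 probe sets were higher on the germ-free colon array, by log2 changes of 0.32 to 1.12, and 1 of them, the brightest, was past 2-fold. The next brightest read 316 on the germ-free and 203 on the wild type colon array. Both measured Cd44 probe sets were higher, at 0.51 and 0.89, and the dimmer of them read 705 on the germ-free against 381 on the wild type colon array. Both measured Sox9 probe sets were higher, at 1.01 and 0.94, with wild type values at or near the floor. The Ccnd2 call therefore rests on 1 of 5 probe sets and the Sox9 call on a value just past 2-fold. With median scaling of the arrays, 1 of these calls remained in place of 2, and with a floor at the 75th percentile 0 did. With all probe sets of a gene averaged, Ccnd2 was at 0.88, short of 2-fold. The averaged wild type colon values of Sox9 and Cd44 lay under the floor, so their changes of 0.42 and 1.13 were lower bounds. Without a floor, the Sox9 probe sets were higher by 0.98, 1.81 and 1.01, the first 2 with wild type values under it.

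On the germ-free ileum array, 0 of 8 measured genes of the list were 2-fold higher or lower than on the wild type ileum array, as were 0.23% and 0.698% of 11750 measured genes, or 0.928% either way. Lower values were in the majority, in 6 of the 8, where 45.1% of all measured genes were lower, and the median was -0.36, against 0.03 over all. Olfm4 had the largest change, at -0.83 (1.78-fold lower), the only one outside the middle 95% of all changes (-0.63 to 0.58). Smoc2 followed at -0.62, Cd44 at -0.55 and Prom1 at -0.51, each past the SD of 0.19 between probe sets. That SD is from bright probe sets and does not cover Smoc2, which was dimmer. With all probe sets of a gene averaged, the germ-free ileum values of Smoc2 and Cd44 lay under the floor. Their changes of -0.05 and -0.20 were therefore minimum sizes. Without a floor, the dimmer Smoc2 probe set was at -0.45, with both ileum values under it. The dimmer measured Cd44 probe set was at -0.24. Ascl2 was at -0.22 and Axin2 at 0.15. Ccnd2 was at 0.05 by its brightest probe set, but 4 of its 6 measured probe sets were lower, 1 of them by -1.02 (90.3 on the germ-free against 184 on the wild type ileum array). Sox9 lay at the floor.

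**Figure D3:**
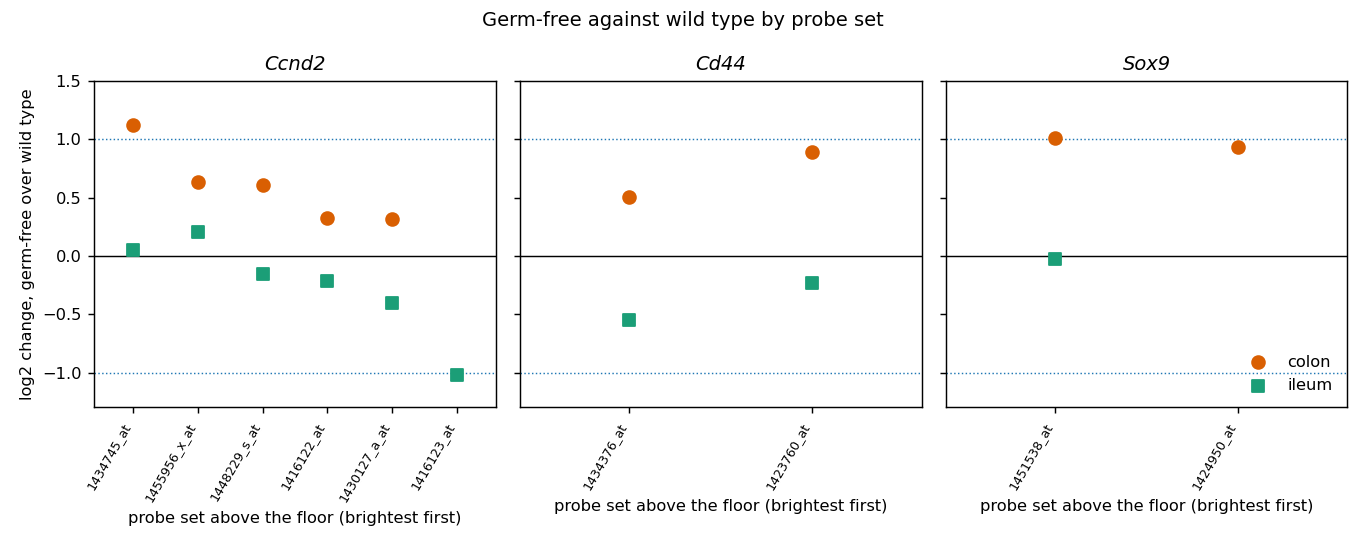
Log2 change, germ-free over wild type (y axis), of each probe set of Ccnd2, Cd44 and Sox9 above the floor on at least 1 array, with colon as orange circles and ileum as green squares, and 2-fold as dotted lines. A probe set with both arrays of a region under the floor has no point there. All colon points lie above 0, between 0.32 and 1.12, and each ileum point lies below the colon point of the same probe set where both are measured.

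The germ-free changes differed between regions for the same 3 genes. The colon change exceeded the ileum change by 1.07 log2 for Ccnd2, 1.06 for Cd44 and 1.03 for Sox9. The middle 95% of this difference over 11065 genes measured in both regions ran from -1.28 to 0.96. Each other Ccnd2 probe set measured in both regions stayed inside that range. The next brightest was at 0.64 in colon and 0.21 in ileum. The dimmer measured Cd44 probe set lay outside it, at 0.89 in colon and -0.24 in ileum. For Sox9, 1 of 3 probe sets was measured in ileum. Its germ-free ileum value of 56.3 lay under the floor, so the Sox9 difference is a lower bound. Without a floor it was 1.18. The difference was 0.43 for Prom1, 0.23 for Ascl2 and -0.53 for Axin2. The difference was positive for 5 of 6 genes, where 48.6% of all genes had a positive one. With no replicate arrays the difference could not be tested.

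The other genes of the Wnt pathway are given from ligands to targets. Counts in these and later lists stand beside small shares over all measured genes. In the germ-free comparisons 4.52% passed 2-fold either way in colon and 0.928% in ileum. Between regions, 13.2% did in the germ-free and 12% in the wild type state. Of 25 Wnt ligands, R-spondins and secretion factors, 18 were below the floor on all 4 arrays, including Wnt3 and all 4 R-spondins. Wls, which carries Wnt proteins to the cell surface, read 393 on the germ-free ileum, 485 on the wild type ileum, 413 on the germ-free colon and 405 on the wild type colon array. Between germ-free and wild type colon, 1 of 6 measured genes of this list was at least 2-fold lower, the ligand Wnt7b, at 76.8 against 185, named after its value was seen. Of the receptors, 0 of 13 in colon and 0 of 12 in ileum were past 2-fold in the germ-free comparisons. Fzd1, a Frizzled receptor, read 231 on the germ-free and 403 on the wild type colon array. Fzd5, a brighter Frizzled receptor, read 3868 against 3140. Lgr4, the Lgr receptor found throughout the crypt, read 1937 on the germ-free ileum, 2154 on the wild type ileum, 1688 on the germ-free colon and 2034 on the wild type colon array.

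Of 16 measured genes of Wnt signal transduction, 0 were past 2-fold in either germ-free comparison, with medians of 0.11 in colon and 0.10 in ileum. Tcf7l2, the main TCF factor of the intestine, differed by region, at 1133 on the germ-free ileum and 849 on the wild type ileum array, against 2645 on the germ-free colon and 1808 on the wild type colon array. It was 2.34-fold lower in germ-free and 2.13-fold lower in wild type ileum than in colon. Wif1, which binds and blocks Wnt proteins, was below the floor in ileum and read 251 on the germ-free and 292 on the wild type colon array. It was at least 4.03-fold and at least 4.68-fold lower in ileum in these states, the only antagonist past 2-fold.

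Other Wnt targets and other stem cell genes stayed within 2-fold in both germ-free comparisons, as did most measured genes. Over all measured genes, 4.52% were past 2-fold in colon and 0.928% in ileum. Of the other Wnt target genes, 0 of 9 in colon and 0 of 10 in ileum were past 2-fold in the germ-free comparisons. Ccnd1, encoding cyclin D1, read 433 on the germ-free ileum, 586 on the wild type ileum, 374 on the germ-free colon and 338 on the wild type colon array. In both states 1 of 10 was at least 2-fold higher in ileum, Mmp7, a matrix protease that is also a Paneth cell product, at 280 against 90.4 germ-free and 360 against 129 wild type. Among the other crypt base and stem cell genes, 0 of 12 in colon and 0 of 13 in ileum were past 2-fold in the germ-free comparisons. Aqp4, a water channel, was 4.71-fold lower in germ-free and 4.99-fold lower in wild type ileum than in colon. Igfbp4, which binds insulin-like growth factors, was 2.61-fold and 2.58-fold higher in ileum in the same states.

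Notch pathway genes included 10 measured members, of which 0 were past 2-fold in the colon germ-free comparison and 1 in the ileum one, Dll4, a Notch ligand named after its value was seen, at 175 on the germ-free against 82.3 on the wild type ileum array. Hes1, a Notch target that represses secretory fate, read 412 on the germ-free ileum and 488 on the wild type ileum array, against 941 on the germ-free colon and 823 on the wild type colon array. Dll1, another Notch ligand, read 480 on the germ-free ileum and 473 on the wild type ileum array, against 221 on the germ-free colon and 281 on the wild type colon array.

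**Figure D4:**
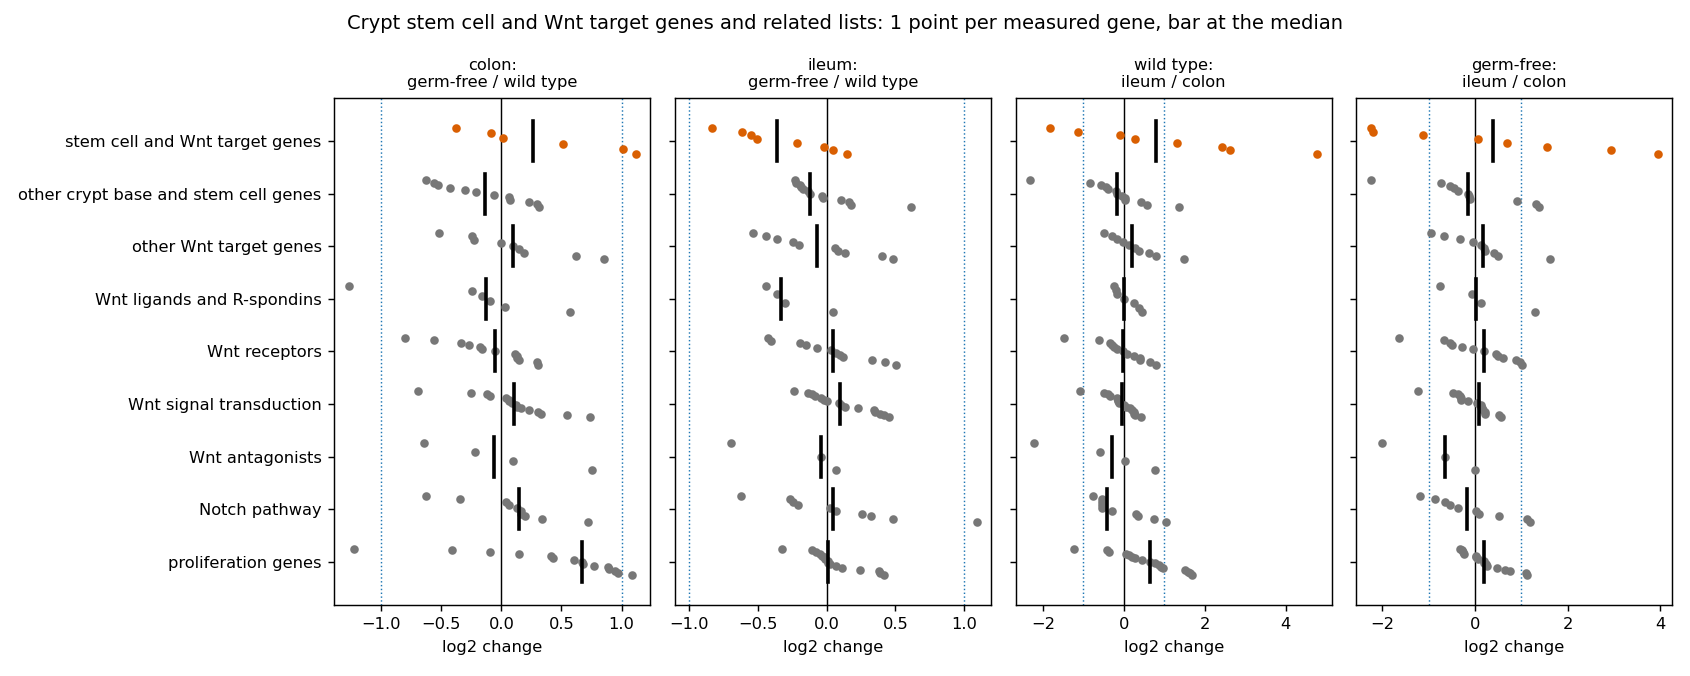
Log2 change of each measured gene (points) of the crypt stem cell and Wnt target list (orange) and of related lists (grey) in the 4 comparisons, with the median of each list as a black bar and 2-fold as dotted lines. The scale of the x axis differs between panels. The list's genes spread from -1.83 to 4.78 between the wild type regions, and the proliferation genes have a median of 0.67 in the colon germ-free comparison.

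Genes of the cell cycle are given beside Ccnd2. Of 15 measured proliferation genes, 12 read higher on the germ-free than on the wild type colon array, where 48.6% of all measured genes did. The median of the 15 was 0.67, against -0.01 over all measured genes. One passed 2-fold upward, Mcm6, and another downward, Aurkb, whose germ-free value was under the floor. The replication helicase subunit Mcm4 read 357 on the germ-free and 185 on the wild type colon array, and the cyclin Ccna2 463 against 251. In ileum 0 of 16 were past 2-fold and the median was 0.01. Between the germ-free regions, 2 of 16 were at least 2-fold higher in ileum than colon, where 7.37% of all measured genes were. Between the wild type regions it was 4 of 17, where 6.04% were. The medians were 0.20 germ-free and 0.65 wild type, against 0.04 and -0.01 over all measured genes. Aurkb was at least 2-fold lower in wild type ileum than colon. Mki67, a marker of dividing cells, read 558 on the germ-free ileum and 700 on the wild type ileum array, against 332 on the germ-free colon and 246 on the wild type colon array. In pooled tissue, more cells of a type and more RNA per cell cannot be told apart.

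Markers of other cells moved with some of these values and opposite to others. Beside Smoc2, the summed intensity of 10 fibroblast and smooth muscle markers was 4227 on the germ-free ileum, 6622 on the wild type ileum, 3872 on the germ-free colon and 4348 on the wild type colon array, with 9 of the markers above the floor on the wild type ileum array and 6 on each other array. Of 9 such markers measured in ileum, 4 passed 2-fold downward in the germ-free comparison, and of 9 measured between the wild type regions, 5 passed 2-fold toward ileum. Myh11, the smooth muscle myosin, was below the floor on all arrays. Beside Olfm4, the summed intensity of 6 Paneth cell markers was 11349 on the germ-free ileum, 17326 on the wild type ileum, 2133 on the germ-free colon and 5330 on the wild type colon array, with 5 above the floor on each ileum and 4 on each colon array, and Pla2g2a was below it on all. Nupr1 ran against the other measured Paneth markers between regions and made up most of the colon sums, at 119 on the germ-free ileum, 256 on the wild type ileum, 1284 on the germ-free colon and 4294 on the wild type colon array. Lyz1, the Paneth cell lysozyme, read 7687 on the germ-free ileum and 10210 on the wild type ileum array, against 131 on the germ-free colon and 233 on the wild type colon array. Beside Cd44 and Ccnd2, which lymphocytes also express, the sum over 7 T lymphocyte markers was 980 on the germ-free ileum and 1651 on the wild type ileum array, and 563 on the germ-free colon and 962 on the wild type colon array. Cd3e, Cd3g and Cd3d, which define T cells, were below the floor on all arrays. The sum over 5 plasma and B cell markers was 2498 against 12154 in ileum and 776 against 6269 in colon, germ-free against wild type, and Cd79a and Ms4a1 were below the floor on all arrays. In colon both lymphocyte sums were lower germ-free, where Cd44 and Ccnd2 read higher. In ileum Cd44 read lower germ-free, as both lymphocyte sums did. Such sums follow their brightest genes.

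Markers of other epithelial cells also differed. All 4 measured tuft cell markers read lower on the germ-free than on the wild type colon array, 2 of them past 2-fold, with a median of -0.95. Of 9 measured absorptive enterocyte markers, 6 passed 2-fold toward ileum in each state, with medians of 1.97 germ-free and 1.96 wild type. Fabp2, Vil1 and Krt20 stayed within 2-fold in both states, and Fabp2 and Apoa4 are also in the list of ileal markers. Between germ-free and wild type colon, 7 of the 9 were higher, where 48.6% of all measured genes were. The median was 0.22. Of the 9, 1 passed 2-fold upward, Apoa1, at 245 against 34.8, where 1.29% of all measured genes did. Of 6 measured enteroendocrine markers, 2 passed 2-fold toward colon between the germ-free and 3 between the wild type arrays. Chga, a granule protein of enteroendocrine cells, read 491 on the germ-free ileum and 602 on the wild type ileum array, against 4469 on the germ-free colon and 5631 on the wild type colon array. The part of any of these cell types in the changes of the list was not tested.

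Some genes had profiles over the 4 arrays close to those of the 3 widest-ranging genes of the list. Likeness was measured as the largest difference on any array between floored log2 profiles, each centred on its mean, over 7612 genes bright on at least 1 array. For Axin2 the closest were 1700025G04Rik (0.05 log2), Aldh18a1 (0.08) and Sec14l2 (0.15), and for Ccnd2 Depdc7 (0.12), Tmem86a (0.13) and Tram2 (0.16). For Olfm4 the closest differed more, Xpnpep2 and Pik3ap1 by 0.46 and 0.48 and Slc43a2 by 0.48. With 4 arrays, many genes can share such a profile.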

How the data were processed

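Expression was measured on Affymetrix mouse arrays, 1 array for each of 4 groups, per the series' design text. The authors deposited probe set intensities on a linear scale, made with dCHIP2004 per the design text; the sources used here do not give its background, model or normalization options. The design text gives 40 ng of total RNA as the input of the amplification.

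The table held 45101 probe sets, of which 64 were controls. The others were quantile-normalized on the log2 scale with Python 3.11.15, numpy 2.4.6 and pandas 2.3.3. The floor was the pooled median, and a bright gene exceeds 259, the 75th percentile over all arrays. Of the probe sets, 34945 had 1 gene symbol in the platform annotation, 932 had several and 9160 had none here. Only those with 1 symbol entered, with symbols updated through a RefSeq table of GRCm38.p6. The probe set with the highest mean log2 value over the 4 arrays stood for a gene.

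Calls were made at 2-fold. All 10 genes of the list were to be described. Genes of the tissue checks and cell type lists were named where their level bears on the list, and for the 3 widest-ranging genes of the list the 3 closest profiles. From each other related list at most 3 genes per comparison were named, those with the largest change among bright ones, apart from Wnt7b, Dll4, Grem1, Ephb3, Mcm6, Aurkb and those named as below the floor, which were named after their values were seen. The list and the related lists were chosen with earlier results of these data known. Settings tried instead were the deposited values, median scaling, floors at the 25th and 75th percentiles, no floor, the mean of all probe sets of a gene, and leaving out probe sets that can match several transcripts. The steps were tested on simulated data. With 1 array per group, precision beyond the spread between probe sets is unknown.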

Additional observations from a re-analysis of the deposited data

Results flagged for a closer look

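Cd44 was listed for a closer look because its germ-free change went in opposite directions in the 2 regions by at least 0.5 log2 each. Its log2 change was 0.51 in colon and -0.55 in ileum, a difference of 1.06 between regions. Over the 7 alternative settings this difference stayed between 0.90 and 1.33. The minimum size was not met in both regions under every setting, since the colon change was 0.31 with median scaling. With all probe sets averaged, the ileum change of -0.20 was only a bound, because the germ-free ileum average lay under the floor. With 1 array per group, the difference was not tested.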

How the results depend on the processing

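No paired analysis was possible because each group has 1 array and the labels give no replicate numbers, and no array could be left out. Of 112 counts and medians recomputed under alternative settings, 99 were classed as the same as the reported value and 13 as moved. Some counts classed as the same did change, along with the number of genes measured. Without a floor, 3 of 9 passed 2-fold upward in germ-free colon, where 6.8% of all genes did. With probe sets averaged, 4 of 6 passed 2-fold either way between the wild type regions, where 11.1% of all genes did. With median scaling, Ccnd2 alone passed 2-fold upward in germ-free colon, 1 gene in place of 2. With a floor at the 75th percentile it was 0 of 3 measured, and the regional medians became 1.54 (germ-free) and 2.14 (wild type), since fewer genes were measured. With the mean of all probe sets of a gene, 1 gene (Cd44) was 2-fold higher in germ-free colon, and the median there was 0.65. Between the wild type regions, 1 gene was then 2-fold lower in ileum than colon, and the median was 1.15. The wild type regional change of Cd44 turned to 0.20, since its dim probe sets are then averaged in. Averages under the floor were raised to it, so these counts and medians include bounds. Leaving out probe sets open to several transcripts, after which Ascl2 was no longer measured, the regional medians were 0.70 (germ-free) and 1.32 (wild type). Olfm4's regional change depends on the floor, at 6.86 (germ-free) and 8.94 (wild type) with none.

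Scaling moved the balance over all genes. Of genes past 2-fold in the colon germ-free comparison, 28.6% were higher here, 51.8% in the deposited values and 19.3% with median scaling, and the median of all genes was -0.01, 0.09 and -0.14. Between the germ-free regions these shares were 55.6%, 38.5% and 64.4%, with medians of 0.04, -0.11 and 0.18. The number of genes past 2-fold also followed the floor, from none to the 75th percentile: 2864 to 186 in the colon germ-free comparison (531 here), 1856 to 27 in the ileum one (109), 3583 to 822 between wild type (1437) and 4152 to 803 between germ-free regions (1588). Low intensity limits Lgr5 and Sox9, which lie below or near the floor.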

Other observations

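B-type ephrins guide cell position along the crypt by binding EphB receptors. Of the 4 or 5 measured genes of these ligands and of EphB receptors, none was past 2-fold in the 4 comparisons, and 2 of them were ephrins. Efnb1 read 2083 on both ileum arrays, 2717 on the germ-free colon and 1830 on the wild type colon array. Efnb2 read 1407 on the germ-free ileum and 1326 on the wild type ileum array, against 1920 on the germ-free colon and 2158 on the wild type colon array. Ephb3, a receptor that also is a Wnt target, stayed between 94.9 and 107.

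Of 11 measured BMP pathway genes, 0 were past 2-fold in the colon germ-free comparison and 1 was lower in the ileum one, Grem1, a stromal BMP antagonist chosen after its value was seen, at 66.1 on the germ-free against 141 on the wild type ileum array. Bmp2, a ligand of the pathway, read 1749 on the germ-free ileum and 1606 on the wild type ileum array, against 1203 on the germ-free colon and 804 on the wild type colon array. Id2, a BMP target, read 927 on the germ-free ileum and 1044 on the wild type ileum array, against 847 on the germ-free colon and 528 on the wild type colon array.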
